A study of Homo sapiens with 4 samples.

Results

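The genes that encode the subunits of PI3 kinase, together with the phosphatases that act against it, were followed in OPM2 cells given a PI3 kinase inhibitor. The set holds 9 genes, listed by name with earlier results of these data known: the catalytic subunits PIK3CB, PIK3CD, PIK3CG and PIK3C3, the regulatory subunits PIK3R1, PIK3R2 and PIK3R3, and the lipid phosphatases INPP4B and INPP5D. Probe sets that the platform annotation gives to exactly 1 gene were kept, and 8 of the 9 genes had one, out of 18377 genes in all. Each of the 8 had 1 probe set, so no choice between probe sets was needed. PIK3R2 was not analysed here. PIK3CG and INPP4B lay among the dimmest 40% of genes and were left out of the test, which leaves 6 tested members among 11026 tested genes.

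OPM2 is an established line of human multiple myeloma, a tumour of plasma cells. VS-5584, also called SB2343, is a small molecule that blocks both mTOR and the catalytic subunits of class I PI3 kinase. Of 4 one-colour arrays, 2 held RNA of control cells, which received only DMSO, the solvent of the drug. The other 2 held RNA of cells treated with VS-5584, at 123 nM by the sample labels or 125 nM by the design text. All were harvested at 24 h. The titles call the replicates biological and do not tell how cultures were separated, so p-values measure only the spread between these arrays.

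PI3 kinases are enzymes that add a phosphate to the inositol ring of membrane lipids. The class I enzymes pair a catalytic p110 subunit with a regulatory subunit, and in response to surface receptors they make PIP3, the lipid that draws AKT and other proteins to the membrane. PIK3C3 encodes VPS34, the class III enzyme, which makes a simpler lipid on internal membranes for autophagy and endosome traffic. The phosphatases SHIP1 (INPP5D) and INPP4B remove phosphates from PIP3 and from the lipid that SHIP1 leaves. In blood cells the p110 delta and gamma subunits and SHIP1 are characteristic forms, while p110 beta is found in most tissues.

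All 9 plasma cell markers (SDC1, TNFRSF17, PRDM1, XBP1, IRF4, MZB1, CD38, SLAMF7 and POU2AF1) were bright enough to be tested, at log2 intensities from 6.52 to 11.28 over the arrays. The summed intensity of these markers ran from 8758 to 9195 on the control arrays and from 9247 to 10293 on the treated arrays. Markers of other cell types were mostly dimmer, and some passed the brightness limit: 2 of 3 measured for mature B cells (PAX5 and CD79B), 1 of 4 for T cells (CD247), 2 of 5 for monocytes and macrophages (CD68 and FCER1G), 1 of 2 for erythroid cells (HBB), 2 of 4 for fibroblasts (COL1A1 and COL1A2) and 1 of 4 for epithelium (KRT18). The highest log2 values of these lists were 5.83, 5.72, 6.57, 7.31, 6.41 and 7.42, in the same order. MS4A1, the B cell surface protein CD20, read 4.60 to 4.78, and the T cell gene CD3E 4.94 to 5.16. KRT18 read 7.42 on VS-5584 replicate 2 and 6.20 to 6.57 on the other arrays, and its part in the results was not tested. VS-5584 replicate 2 stood apart from the other arrays. Its quartiles were 1.74 log2 units apart, where those of the other arrays were 1.93 to 1.95 apart, and its median tested gene lay -0.14 from the control mean, against -0.0022 on VS-5584 replicate 1. Values of the members are therefore given for each array.

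No member passed the threshold. In limma's fit over all tested genes, 0 of 6 members had an adjusted p under 0.05, and 0 of 11026 genes did (0%). At an unadjusted p under 0.05, 1 of 6 members stood out, PIK3R1, and 1149 genes did (10.4%). PIK3R1 was lower, where 8.93% of all tested genes were lower by that rule, and 0 members were higher, where 1.49% of genes were. An ordinary two-sample test without moderation also gave 0 adjusted calls, with 2 members at an unadjusted p under 0.05, PIK3R1 and PIK3C3, and 492 genes. Without VS-5584 replicate 1, 2 members passed, as did 2636 genes. Which members had an unadjusted p under 0.05 depended on the fit. After cyclic loess or quantile normalization PIK3C3 did and PIK3R1 did not (PIK3R1 unadjusted p = 0.0997 and 0.0754 in limma). In those fits 12.3% and 10.9% of all tested genes did. With an intensity trend 0 members did, beside 11.8% of all tested genes. With the replicate number as a block 3 members did (PIK3R1, PIK3CB and INPP5D), beside 15.6% of all tested genes.

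The differences varied in size and direction between members. PIK3R1, PIK3CB and INPP5D read below both controls on both treated arrays, 3 of 6 members against 29.2% of all tested genes. PIK3C3 and PIK3CD were higher on both, 2 of 6 against 14.7%. For INPP5D and PIK3CD the nearest control and treated arrays were only 0.0023 and 0.0029 apart on the log2 scale. As deposited, PIK3R1 and PIK3C3 shifted by like amounts on both treated arrays. The shift of PIK3CB and INPP5D lay mainly on VS-5584 replicate 2, and the rest fell in neither pair. This grouping depends on scaling: after cyclic loess PIK3R1 shifted by -0.33 on VS-5584 replicate 1 and -0.10 on replicate 2.

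**Figure D1:**
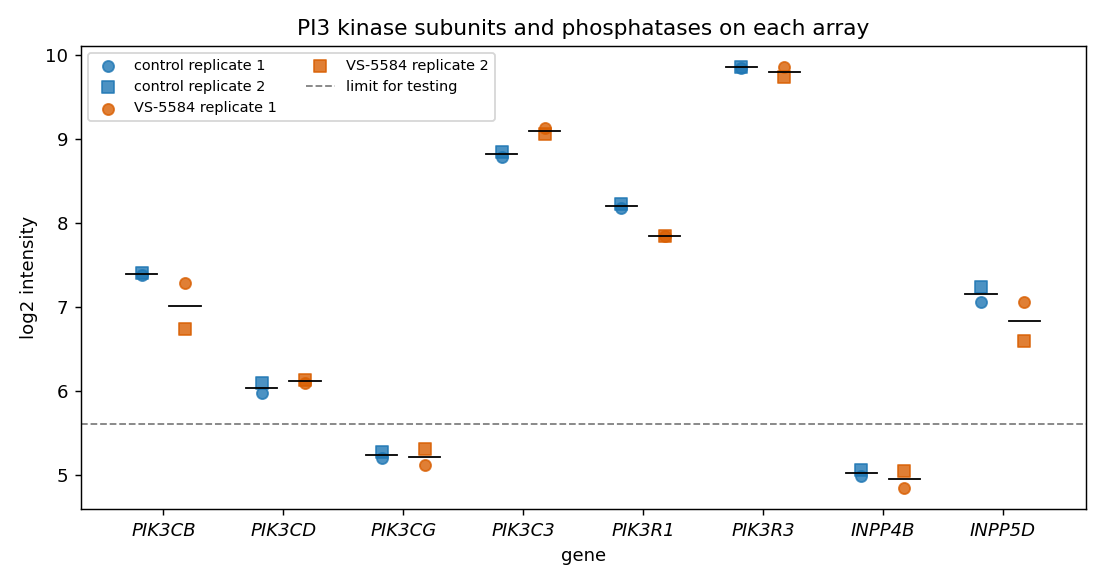
Log2 intensity (vertical axis) of the 8 measured members on each of the 4 arrays; blue points are control, orange points VS-5584, circles replicate 1 and squares replicate 2, short bars are group means, and the dashed line is the brightness limit of 5.61 for testing. The treated points of PIK3R1 coincide below its controls, those of PIK3C3 sit above its controls, and PIK3CG and INPP4B lie under the line.

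Among the class I catalytic subunits, PIK3CB, which encodes p110 beta, read 7.38 and 7.41 on the control arrays and 7.28 and 6.74 on VS-5584 replicates 1 and 2 (log2 intensity). Both treated arrays were below both controls, the second by far more than the first. In bulk RNA, a lower level in every cell and in a share of the cells cannot be told apart. The group means were 7.40 ± 0.02 and 7.01 ± 0.39 (SD, n = 2 each). The log2 difference was -0.39 ± 0.18 (SE), a 1.31-fold lower signal, with a 95% interval from -0.79 to 0.02 and an adjusted p of 0.496 in limma. The difference was -0.11 on VS-5584 replicate 1 and -0.66 on replicate 2. Without replicate 2 the adjusted p was 0.941, and without replicate 1 it was 0.0048, in fits where the lone treated array is assumed to vary like the controls.

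PIK3CD, which encodes p110 delta, the form that B-lineage cells rely on, read 5.97 and 6.09 in control and 6.09 and 6.13 in treated cells. In mean brightness, 54.4% of genes were at or below it. The nearest control and treated arrays were only 0.0029 apart. The difference of 0.08 ± 0.13 (SE) had an adjusted p of 0.834 in limma. Its 95% interval, -0.21 to 0.38, leaves room for a shift in either direction. After median centring or cyclic loess the PIK3CD groups overlapped. PIK3CG, which encodes p110 gamma, the form coupled to G-protein receptors, was below the brightness limit. It read 5.21 and 5.28 in control and 5.12 and 5.31 in treated cells, with the treated arrays on either side of the controls. In linear intensity PIK3CG read 34.9 to 39.5. The lowest value on each array was about 19.8 to 20.01 and the lower quartile of the probe sets 29.9 to 31.9. Background was not estimated, so no change is read from this signal.

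PIK3C3, the class III enzyme VPS34, went the other way from PIK3CB and PIK3R1. It read 8.78 and 8.85 in control and 9.13 and 9.06 in treated cells. Both treated arrays were above both controls, with 0.21 between the nearest pair, and VS-5584 replicate 2 minus replicate 1 was -0.07. The means were 8.82 ± 0.05 and 9.09 ± 0.05 (SD, n = 2 each), a log2 difference of 0.28 ± 0.13 (SE) or a 1.21-fold higher signal. Of all tested genes, 97.4% had a difference at or below that of PIK3C3. Limma gave an adjusted p of 0.504, and a 95% interval from -0.02 to 0.57. The difference was 0.31 on VS-5584 replicate 1 and 0.24 on replicate 2, so it did not rest on the array that stood apart. It grew to 0.41 after cyclic loess and 0.39 after quantile normalization. After median centring it fell to 0.23, with 0.30 on VS-5584 replicate 1 and 0.16 on replicate 2.

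Of the regulatory subunits, PIK3R1 was the most even member as deposited. It encodes p85 alpha and, from later starts, the shorter p55 alpha and p50 alpha, all of which hold p110 stable and inactive until a phosphorylated receptor or adaptor binds. The linear intensities were 291 and 299 in control and 230.1 and 229.6 in treated cells. On the log2 scale these are 8.18 and 8.22 against 7.85 and 7.84. The nearest treated and control arrays were 0.34 apart, and VS-5584 replicate 2 minus replicate 1 was -0.0034. The means were 8.20 ± 0.03 and 7.84 ± 0.0024 (SD, n = 2 each), and the log2 difference was -0.36 ± 0.13 (SE), a 1.28-fold lower signal. Limma's 95% interval for PIK3R1 ran from -0.65 to -0.07, with an adjusted p of 0.417. By unadjusted p it ranked 539th of 11026 genes, and 9.14% of tested genes had a difference at or below it.

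The size for PIK3R1 depended on how the squeezed array was scaled. The difference was -0.36 on each treated array as deposited. After cyclic loess it was -0.33 on VS-5584 replicate 1 and -0.10 on replicate 2, a mean of -0.22, which is over 1.5 times smaller. The groups for PIK3R1 still did not overlap after median centring, cyclic loess or quantile normalization, and neither did those for PIK3C3. Subtracting 16 keeps the order of a gene's arrays, so it could not make these groups overlap.

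PIK3R3, which encodes p55 gamma, was the brightest member, with 96.4% of genes at or below it. It read 9.85 and 9.85 in control and 9.86 and 9.73 in treated cells. The groups overlapped, and the difference of -0.06 ± 0.13 (SE) had an adjusted p of 0.885. The 95% interval ran from -0.35 to 0.24. Its sign turned to 0.048 after cyclic loess and 0.028 after quantile normalization, so no direction can be given. RefSeq also lists a read-through gene, P3R3URF-PIK3R3, whose transcripts could add to the PIK3R3 signal, and this was not tested.

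The gap between PIK3C3 and PIK3R1 on the same array widened with treatment. This pair was chosen after its values were seen. As probe sets differ in brightness, the gap itself has no meaning as a ratio of transcripts, and only its change does. It was 0.60 and 0.63 in control and 1.28 and 1.21 in treated cells, a change of 0.63 on the log2 scale or 1.55-fold. The groups were well apart, but an exact two-sided permutation test over 2 against 2 arrays gives p = 0.333, the smallest it can give. A gap between genes of like brightness on 1 array is hardly touched by scaling, so it adds no check of the 2 differences.

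**Figure D2:**
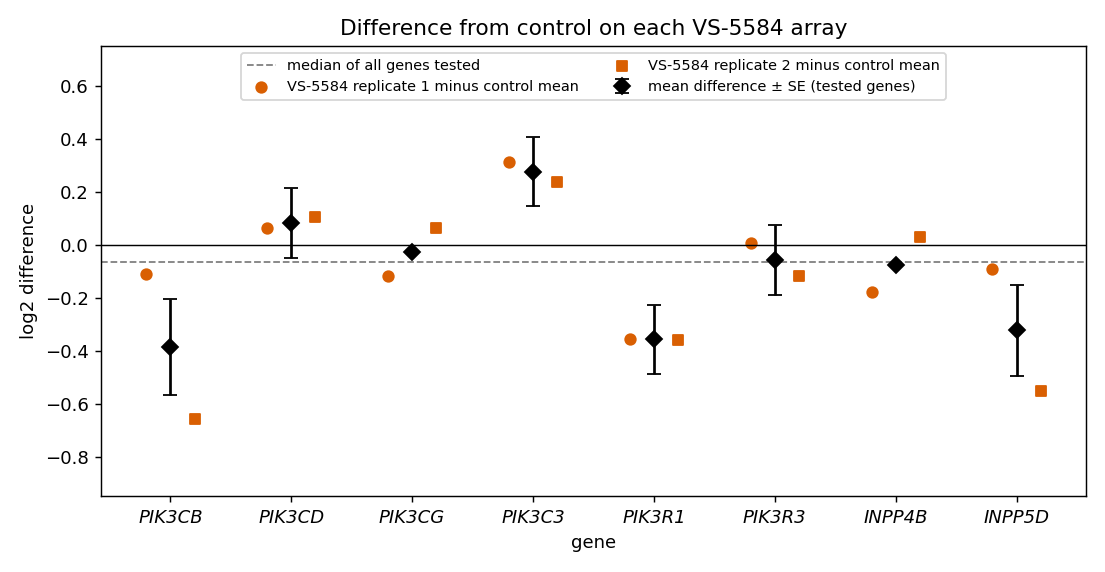
Log2 difference from control (vertical axis) for the 8 measured members; black diamonds are the mean difference with limma's SE for the 6 tested genes, orange circles and squares are VS-5584 replicates 1 and 2 each minus the control mean, and the dashed line is the median of all tested genes, -0.06. As deposited, PIK3R1 and PIK3C3 have both treated arrays on the same side by like amounts, whereas for PIK3CB and INPP5D replicate 2 lies far below replicate 1.

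The promoters of this pair at their most upstream listed start, PIK3R1 and PIK3C3, are shown because their signals differed from control in opposite directions, each from 250 bases before to 50 bases after the start (RefSeq, GRCh38.p14). All 9 genes matched the RefSeq table, with 25 windows between them. PIK3R1 has 4, and its 1 probe set does not separate transcripts from those starts. The first window below is chr5:68215506-68215805 on the plus strand and the second chr18:41954984-41955283 on the plus strand. Capitals mark matches to 5 motifs searched on both strands: the FOXO motif GTAAACA, the E-box CACGTG, the CRE TGACGTCA, the ETS motif CCGGAAGT and the GC box GGGCGG.
PIK3R1: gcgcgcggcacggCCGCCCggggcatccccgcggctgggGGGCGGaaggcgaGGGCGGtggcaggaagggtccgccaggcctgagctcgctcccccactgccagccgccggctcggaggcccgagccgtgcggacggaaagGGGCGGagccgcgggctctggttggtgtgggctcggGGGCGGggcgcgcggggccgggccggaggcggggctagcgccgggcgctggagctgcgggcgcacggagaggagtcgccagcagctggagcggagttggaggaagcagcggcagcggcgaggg
PIK3C3: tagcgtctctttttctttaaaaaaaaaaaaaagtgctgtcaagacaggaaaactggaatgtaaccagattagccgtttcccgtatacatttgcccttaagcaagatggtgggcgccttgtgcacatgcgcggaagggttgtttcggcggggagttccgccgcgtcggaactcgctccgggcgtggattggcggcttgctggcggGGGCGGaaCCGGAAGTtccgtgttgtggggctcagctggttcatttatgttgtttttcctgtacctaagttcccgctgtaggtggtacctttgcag

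The PIK3R1 window is 80.0% G and C and holds 5 GC boxes, at 237, 211, 198, 109 and 73 bases before the start. The PIK3C3 window is 52.3% G and C and holds 1 GC box and 1 ETS motif, which begin 46 and 38 bases before the start and do not overlap. The other PIK3R1 windows hold 2, 0 and 0 GC boxes. A GC box was in 11 of the 25 member windows and in 45.0% of all 35116 listed windows of the same length. The ETS motif was in 2 of 25 and in 4.14% of all. The FOXO motif, bound by factors that AKT keeps out of the nucleus, was in 0 of the 25 member windows and in 3.42% of all windows. The CRE was in 0 of 25 and in 1.85% of all, and the E-box in 1 window of INPP4B and in 7.26% of all. A match is a stretch of letters, not a measured site, and the absence of one says nothing of the factor outside these windows.

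The phosphatase INPP5D encodes SHIP1, the blood-cell enzyme that takes the 5-phosphate from PIP3. It read 7.07 and 7.24 in control and 7.06 and 6.60 in treated cells. VS-5584 replicate 1 was level with control replicate 1, and replicate 2 was clearly lower than the others. The means were 7.15 ± 0.13 and 6.83 ± 0.33 (SD, n = 2 each), a log2 difference of -0.32 ± 0.17 (SE) or a 1.25-fold lower signal. The adjusted p in limma was 0.545 and the 95% interval -0.71 to 0.06. The difference was -0.09 on replicate 1 and -0.55 on replicate 2. Fits without replicate 1 or without replicate 2 gave these same log2 differences, -0.55 and -0.09, each from a lone treated array. After cyclic loess the INPP5D groups overlapped.

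INPP4B, which takes the 4-phosphate from the lipid that SHIP1 makes, was the dimmest member, with 17.3% of genes at or below it. It read 4.99 and 5.06 in control and 4.84 and 5.05 in treated cells, and the groups overlapped. Its linear intensity was 28.7 to 33.3, where the lower quartile of the probe sets on each array was 29.9 to 31.9. Being among the dimmest 40% of genes, it was not tested, and no direction is given. Its paralog INPP4A, which acts on the same lipid, is described with the wider lists.

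PIK3CB and INPP5D both read lowest on VS-5584 replicate 2. A drop there was not particular to them, as the median tested gene lay -0.14 from the control mean on that array. The median of the PI4 and PIP kinases, a wider list described below, lay at -0.33. Whether these genes share regulation was not tested. Their promoters are shown for comparison with the pair above. The first is chr3:138834879-138835178 on the minus strand, the upstream of 2 windows, and the second chr2:233060092-233060391 on the plus strand. Capitals have the same meaning.
PIK3CB: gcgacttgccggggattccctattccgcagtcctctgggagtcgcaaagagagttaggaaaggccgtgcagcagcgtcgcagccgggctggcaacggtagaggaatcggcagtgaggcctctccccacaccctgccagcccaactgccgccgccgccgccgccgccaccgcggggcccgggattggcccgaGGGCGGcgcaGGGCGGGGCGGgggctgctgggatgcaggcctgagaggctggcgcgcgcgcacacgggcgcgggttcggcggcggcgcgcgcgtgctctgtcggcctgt
INPP5D: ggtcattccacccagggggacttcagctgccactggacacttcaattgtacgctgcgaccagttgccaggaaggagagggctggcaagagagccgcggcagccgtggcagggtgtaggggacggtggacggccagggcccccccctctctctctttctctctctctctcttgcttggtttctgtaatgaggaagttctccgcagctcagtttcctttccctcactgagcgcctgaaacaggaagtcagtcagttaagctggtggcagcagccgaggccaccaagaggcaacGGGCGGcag

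The PIK3CB window is 74.0% G and C and holds 3 GC boxes, at 59, 49 and 44 bases before the start, the last 2 of which share a base. The INPP5D window is 60.3% G and C and holds 1 GC box, which lies after the start. Neither holds the FOXO, E-box, CRE or ETS letters.

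**Figure D3:**
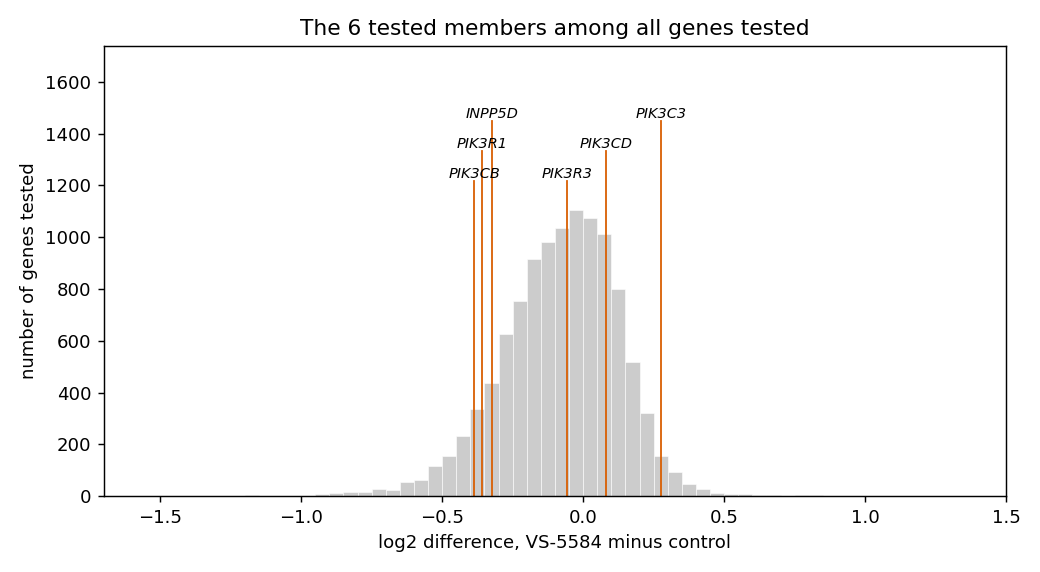
Number of genes (vertical axis) by log2 difference between VS-5584 and control (horizontal axis, bins of 0.05) for the 11026 tested genes, with the 6 tested members marked. PIK3CB, PIK3R1 and INPP5D lie on the left shoulder, PIK3R3 and PIK3CD in the middle, and PIK3C3 near the right edge of the bulk.

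Set against all tested genes, 4 of 6 members had a lower mean after VS-5584, where 62.7% of genes did. That share of genes was 71.6% after median centring and 52.5% after cyclic loess, and the median of all tested genes moved from -0.06 to -0.11 and -0.01. PIK3CB, PIK3R1 and INPP5D kept a negative difference, and PIK3C3 and PIK3CD a positive one, under the 4 rescalings. Relative to the median of all genes, PIK3R1 stood at -0.36 against -0.06 as deposited and at -0.22 against -0.01 after cyclic loess. Under median centring, 0 members passed, and the adjusted p of the members ran no lower than 0.157 in any alternative with all 4 arrays, a value that PIK3CB reached with the replicate number as a block.

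**Figure D4:**
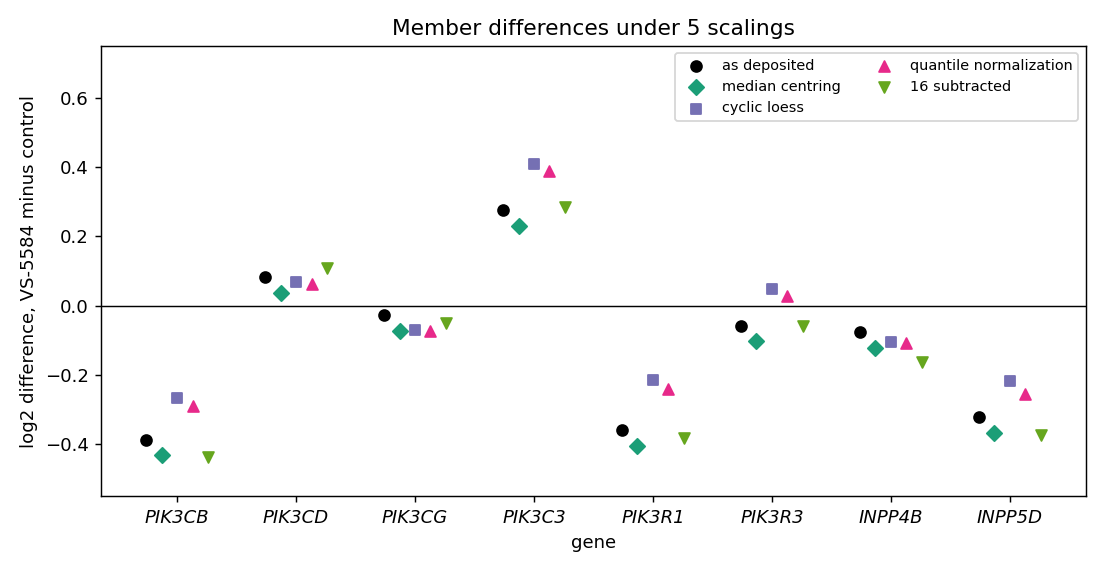
Log2 difference between VS-5584 and control (vertical axis) of the 8 measured members as deposited and under 4 rescalings. PIK3CB, PIK3R1 and INPP5D stay below 0 and PIK3C3 above it at each, with PIK3R1 between -0.40 and -0.22 and PIK3C3 between 0.23 and 0.41, while PIK3R3 crosses 0.

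The genes whose pattern over the 4 arrays was nearest to that of PIK3R1, the member with the smallest unadjusted p, were KPNA3, a nuclear import receptor, CKS1B, a subunit of cyclin-dependent kinases, and MRPL20, a protein of the mitochondrial ribosome. Each gene was centred on its own mean, and the root mean square difference from PIK3R1 was 0.014, 0.018 and 0.022 log2 units. Their log2 differences were -0.38, -0.38 and -0.32. With only 4 arrays such likeness is common, and 618 tested genes lay within 0.1 of PIK3R1. The nearest member was PIK3R3, at 0.157.

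VPS34 works only in complexes, and the mean signal of its partners was lower for 5 of 6 tested genes (83.3%, beside 62.7% of all genes). That count was 3 of 6 after cyclic loess, after quantile normalization and without VS-5584 replicate 2. Beside it, 52.5%, 55.5% and 5578 of 11026 of all genes were lower, in the same order. AMBRA1, the gene with a higher mean and named after its value was seen, differed by 0.18. PIK3R4, the VPS15 scaffold that VPS34 needs, read 7.39 and 7.44 in control and 7.41 and 7.00 in treated cells. VS-5584 replicate 1 was level with the controls and replicate 2 lower, a difference of -0.22 ± 0.16 (SE, limma adjusted p = 0.646). NRBF2, a subunit of the autophagy complex, differed by -0.25 ± 0.15 (SE), with -0.09 on VS-5584 replicate 1 and -0.41 on replicate 2. RUBCN, an inhibitor of the endosomal complex, differed by -0.32 ± 0.16 (SE), with -0.18 and -0.46. The median of the list was -0.15, and 0 genes passed. It was -0.0042 on VS-5584 replicate 1 and -0.29 on replicate 2. The gap between PIK3C3 and PIK3R4 on the same array, also chosen after its values were seen, was 1.40 and 1.41 in control and 1.72 and 2.06 in treated cells.

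Among other phosphoinositide phosphatases, 15 of 19 tested genes were lower (78.9%, beside 62.7% of all genes), with a median of -0.17 beside -0.06 for all genes, and 0 passed. Without VS-5584 replicate 2, 10 of 19 were lower, beside 5578 of 11026 genes. After cyclic loess 14 were lower, beside 52.5% of all genes, and the list median was -0.04. INPP4A had the highest difference of the list. It read 7.97 and 8.16 in control and 8.42 and 8.42 in treated cells, with both treated arrays above both controls, and differed by 0.36 ± 0.14 (SE, limma adjusted p = 0.429). The per-array differences were 0.35 and 0.36. SACM1L, which acts on the monophosphate lipids of the endoplasmic reticulum and Golgi, differed by -0.36 ± 0.17 (SE), with -0.13 on VS-5584 replicate 1 and -0.59 on replicate 2. The list median was -0.0058 on replicate 1 and -0.31 on replicate 2.

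The list of PI4 and PIP kinases takes in enzymes that make the lipid that class I PI3 kinase uses. It also holds PIKFYVE and VAC14, which do not make that lipid. Of its 12 genes, 11 had a lower mean (91.7%, beside 62.7% of all genes). Their median was -0.18 and 0 passed the threshold. It was -0.04 on VS-5584 replicate 1 and -0.33 on replicate 2. VAC14, the scaffold of the PIKFYVE lipid kinase, differed by -0.36 ± 0.16 (SE), with -0.17 on replicate 1 and -0.55 on replicate 2. The kinase gene PIP4K2B differed by -0.28 ± 0.16 (SE), with -0.14 and -0.42. After cyclic loess 8 of 12 were lower, beside 52.5% of all genes, and the list median was -0.05. Without VS-5584 replicate 2 the count was also 8, beside 5578 of 11026 genes.

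Of the receptors and adaptors that bring PI3 kinase to the membrane, 9 of 13 tested genes were lower (69.2%, beside 62.7% of all genes). Their median of -0.06 was equal to that of all genes to 2 decimals, and 0 passed. GAB1, a docking adaptor with binding sites for p85, read 8.78 and 8.71 in control and 9.18 and 9.04 in treated cells. Both treated arrays were above both controls, and the difference was 0.37 ± 0.13 (SE, limma adjusted p = 0.417). CBLB, a ubiquitin ligase that restrains signalling through p85, differed by 0.26 ± 0.14 (SE), with 0.39 on VS-5584 replicate 1 and 0.13 on replicate 2.

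Among PIP3 readers and the phosphatases that act on them, 10 of 15 tested genes were lower (66.7%, beside 62.7% of all genes). Their median was -0.13, and 0 passed. The median was -0.02 on VS-5584 replicate 1 and -0.27 on replicate 2. After cyclic loess 8 of 15 were lower, beside 52.5% of all genes. PHLPP1, which dephosphorylates AKT, read 7.01 and 7.14 in control and 6.84 and 6.62 in treated cells and differed by -0.34 ± 0.14 (SE, limma adjusted p = 0.454). The difference was -0.23 on VS-5584 replicate 1 and -0.46 on replicate 2. PLEKHA2, a PH-domain adaptor, differed by -0.34 ± 0.14 (SE), with -0.23 and -0.45. PLCG1, a phospholipase recruited by PIP3 and named after its value was seen, differed by -0.39 ± 0.17 (SE), with -0.16 and -0.61. Of the remaining PI3 kinase genes listed, which take in the class II enzymes and the partners of p110 gamma, 2 of 8 were bright enough to be tested: PIK3R4, given above, and PIK3C2A, a class II enzyme, which differed by 0.09 ± 0.17 (SE), with 0.27 on VS-5584 replicate 1 and -0.09 on replicate 2.

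**Figure D5:**
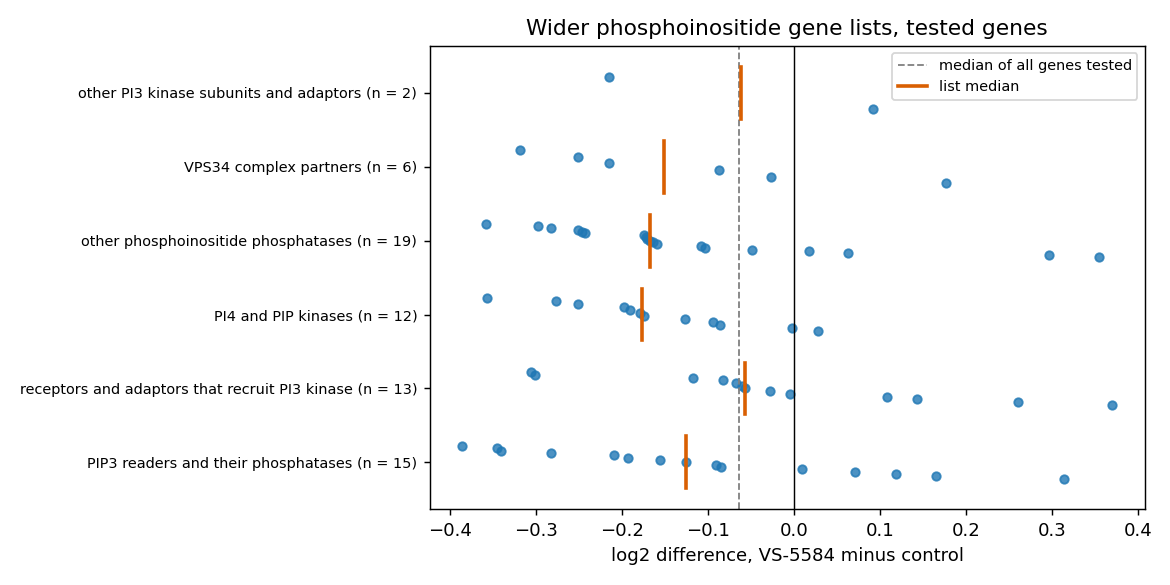
Log2 difference between VS-5584 and control (horizontal axis) for the tested genes of 6 wider lists; each blue point is a gene, spread vertically for legibility, the orange bar is the list median and the dashed line the median of all tested genes, -0.06. The medians of 4 lists lie to the left of the dashed line, and the points furthest to the right are GAB1 and INPP4A.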

How the data were processed

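Total RNA of OPM2 cells was labelled with biotin through a whole-transcript kit, per the labels' protocols, and hybridised to 4 one-colour arrays. The deposited table holds a linear intensity for each of 28869 probe sets. The submitters' processing notes give RMA as a tool, with no version. Later steps and the genome build of the array are not given in the sources used here. Any constant added to the intensities would shrink fold changes of dim genes.

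Intensities were turned into log2 values and not normalized again. Of the probe sets, 19310 carried 1 gene, of which 19279 matched RefSeq (GRCh38.p14) by gene ID. The brightest probe set was kept for each gene. The 40% of genes with the lowest mean were left out. The test was limma 3.58.1 under R 4.3.3 (lmFit and eBayes), two-sided, with Benjamini-Hochberg adjustment over all tested genes and a threshold of 0.05. The code was tested on simulated data.

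The members, the 6 wider lists (91 genes) and the tests were chosen with earlier results of these data known. The genes named are all members, the 2 genes with the smallest unadjusted p of each list, the 3 genes nearest in pattern to the member with the smallest unadjusted p, and cell type markers. Any other gene is marked as picked with its value in view. The alternatives were median centring, quantile normalization, cyclic loess, a block for the replicate number, other brightness filters (none, 20% and 60%), an intensity trend, no moderation, the mean of probe sets, 16 subtracted, and leaving out each array. The number of arrays limits the precision. Figures were drawn with matplotlib 3.10.9.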

Additional observations from a re-analysis of the deposited data

How the results depend on the processing

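With all 4 arrays, 0 members had an adjusted p under 0.05 in any of the 11 alternatives, and in the fit as deposited the count at an unadjusted p under 0.05 was 1. The number of all genes past the threshold was 0 as deposited, 432 with the replicate block, 16 after cyclic loess, 2 after quantile normalization, 58 with the lowest 60% left out, 80 with an intensity trend, 2 with 16 subtracted, and 1 at an adjusted p under 0.1. Leaving out each array gave 2 to 2636 genes and 0 to 2 members (PIK3CB and INPP5D, without VS-5584 replicate 1). The labels do not tell whether control and treated replicates with the same number were paired. The correlation between control and treated replicate differences was 0.156 over genes. With the replicate block 0 members passed (lowest adjusted p = 0.157 in limma, PIK3CB). At an unadjusted p under 0.05, 3 members rather than 1 were called, and the share of all tested genes was 15.6% rather than 10.4%.

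PIK3R3 turned to 0.048 after cyclic loess and 0.028 after quantile normalization. Without each array in turn, its difference ran from -0.12 to 0.0053, PIK3CB from -0.66 to -0.11, INPP5D from -0.55 to -0.091, PIK3R1 from -0.38 to -0.34, PIK3C3 from 0.24 to 0.31, PIK3CD from 0.02 to 0.14, PIK3CG from -0.12 to 0.06 and INPP4B from -0.18 to 0.03. The list medians ran from -0.33 to -0.038 for PI4 and PIP kinases, -0.27 to -0.025 for PIP3 readers, -0.29 to -0.0042 for VPS34 partners, -0.31 to -0.0058 for other phosphatases, -0.068 to -0.0061 for receptors and adaptors and, changing sign, -0.25 to 0.13 for other PI3 kinase subunits (2 genes; 0.058 after cyclic loess, 0.054 after quantile normalization). The median of receptors and adaptors was -0.10 after median centring, -0.073 after cyclic loess, -0.070 after quantile normalization, 0.0090 with no filter, -0.0041 with the lowest 20% left out, -0.0044 with the lowest 60% left out and -0.075 with 16 subtracted. The causes of these shifts were not tested.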
